A study of Drosophila melanogaster with 16 samples.

Results

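The loss of l(2)gl, called lgl here, was compared between 2 larval tissues of Drosophila melanogaster, the wing discs and the brain complexes. For each gene the log2 difference between lgl mutant and wild-type brain complexes was subtracted from the same difference in wing discs, and the outcome is called the tissue difference. A positive value means that the change was higher in discs than in brains, and a negative value that it was lower. The comparison used 10 of the 16 arrays in the series. They were 2 arrays of wild-type discs, 2 of wild-type brains, 3 of lgl discs and 3 of lgl brains. The lgl larvae carried lgl27S3/lglE2S31, which the submitters call null, and were dissected at day 9 after egg deposition. The wild-type larvae were dissected at day 5, and all larvae were in the third instar. Genotype and age therefore changed together in both tissues and cannot be told apart. The other 6 arrays held scrib1/scrib2 discs and brains of day 9, with 3 arrays each, and they are used below as a second tumour genotype of the same age. The submitters describe all mutant samples as tumours and the wild-type samples as free of them. Nothing in the labels ties an array to separate larvae, so the p-values reflect array-to-array spread alone, and this spread may be technical.

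Lgl, Scrib and Dlg form a scaffold module that sets the border between the apical and basolateral membrane of an epithelial cell. In the wing disc, a folded epithelial sheet patterned by selector transcription factors, loss of the module breaks cell polarity and lets the tissue overgrow. In the larval brain, Lgl also acts in neuroblasts, the stem cells that divide asymmetrically and pass fate determinants such as Prospero to 1 daughter cell. The brain holds many cell types besides them, among them neurons, glia and neurosecretory cells, and the ring gland lies beside it.

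The mutated gene fell in both tissues. The l(2)gl signal, on the log2 scale throughout, was 10.51 and 10.72 in wild-type discs and 5.47, 2.99 and 2.42 in lgl discs. In brains it was 9.89 and 8.93 in wild type and 2.21, 2.82 and 2.21 in lgl. The fall was at least 69.9-fold in discs and at least 42.6-fold in brains, and the tissue difference did not pass the test (limma, adjusted p = 1). Of the 6 lgl values 5 lay below 4, so the floor of the arrays limits that difference. The scrib gene had a tissue difference of 0.09 ± 0.43 (standard error) and did not pass the test (adjusted p = 0.92). Over the 27 wing disc markers measured, the median signal was 8.18 and 8.91 on the wild-type disc arrays and 5.04 and 5.95 on the wild-type brain arrays. The neuronal list of 17 genes ran the other way, with medians of 4.48 and 2.56 in wild-type discs and 10.2 and 9.43 in wild-type brains. Signals below 4 lie near the floor of the arrays and have no measured order. A fold is written as at least a value where an array of the dimmer group lay below 4 and was set to 4. Tissue differences that draw on such signals depend on the floor. The spread between arrays of a group was larger in wild type (pooled SD 0.651 in discs and 0.661 in brains) than in lgl (0.327 and 0.336), and only 2 wild-type arrays stood on each side.

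Of 7213 genes, 963 had a tissue difference that passed the test (limma, Benjamini-Hochberg adjusted p below 0.05). That was 13.4% of the genes tested, with 659 higher (9.14%) and 304 lower (4.21%), while the median over all genes was -0.04. One class, 319 genes, rose in lgl discs and did not pass the test in brains, with median changes of 2.14 in discs and -0.19 in brains. In a second class 228 genes fell in lgl brains only, by a median of -1.64. Another 170 rose in brains only (median 1.21) and 89 fell in discs only (median -2.05). The 2 tissues went opposite ways in 75 genes, 65 of them up in discs and down in brains and 10 the reverse. Both tissues rose in 32 genes and fell in 2, to different extents, and 48 genes passed for the tissue difference without passing in either tissue. The classes moved with the arrays. Without wild-type brain array 2 the genes up in brains only numbered 740, against 316 up in discs only, and with array weights 8 were up in brains only. The opposite-sign classes held 34 and 5 genes without lgl brain array 1, and 111 and 26 without wild-type brain array 2. They held 11 and 0 when only the arrays compared were fitted, and 2 and 0 with array weights.

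**Figure D1:**
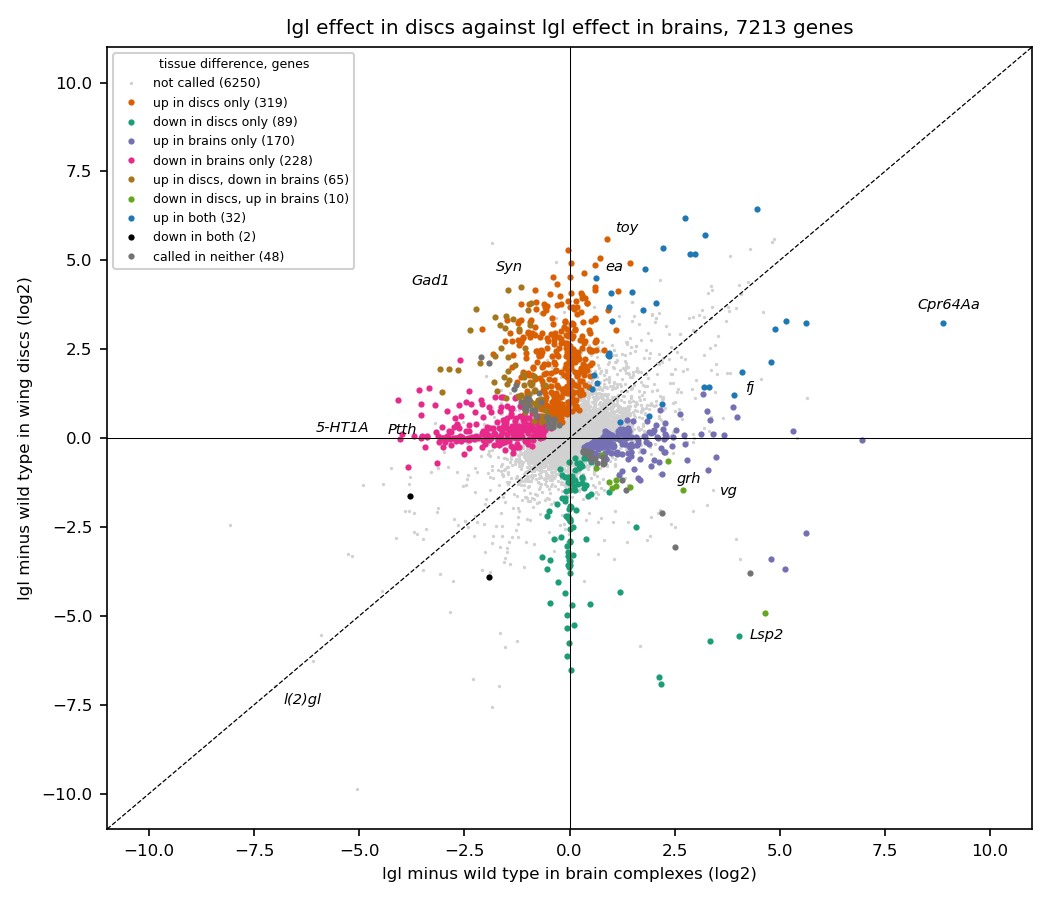
Change in lgl against wild type for 7213 genes, in brain complexes on the horizontal axis and in wing discs on the vertical axis, both in log2 units. Each point is a gene, grey where the tissue difference did not pass the test and coloured by class otherwise; the dashed line marks equal change, and the 319 genes up in discs only form the band above the centre.

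The counts depended on the wild-type arrays. With limma's array weights estimated by group, which gave wild-type discs 0.3591 and wild-type brains 0.2138 against 2.159 and 1.605 for the lgl groups, 140 genes were called, 113 higher and 27 lower, and all 140 were among the 963. Without wild-type brain array 2 the count rose to 2007 genes. Genes were named by size, overall or within a class, or by smallest adjusted p within a list. How well they kept their calls therefore does not carry over to the other called genes. Of 92 called genes so named, 23 were also called under each of 20 alternative fits that tested them. They are Nplp1, Gad1, NLaz, Capa, ea, Snap25, Syn, vg, twit, Crz, 5-HT1A, wun2, moody, grh, toy, Ptth, nvd, FASN1, fj, E(spl)m5-HLH, Zasp52, spz and FMRFa. Most genes described at length below are among them.

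Genes of neurons lay on the higher side, after the neuropeptide and ring gland lists (medians 3.35 and 2.65). Of 17 measured neuronal genes, 11 had a higher tissue difference and 0 a lower one, against 13.4% of all genes called in either direction. The median of the list was 2.49, against -0.04 over all genes. In discs 8 of the 17 rose, against 12.6% of all genes (18.2% called in either direction), and in brains 9 fell, against 11.3% (25.5% called in either direction). Without wild-type disc array 2 the rises were 3, and without wild-type brain array 1 the falls were 3. Synapsin (Syn), a phosphoprotein of synaptic vesicles, gave 2.94 and 2.36 in wild-type discs and 6.47, 7.44 and 6.82 in lgl discs. In brains it gave 10.98 and 10.64 in wild type against 9.78, 9.63 and 9.57 in lgl. The groups did not overlap in either tissue: Syn rose at least 7.53-fold in discs and fell 2.21-fold in brains (tissue difference 5.41 ± 0.37, limma adjusted p = 3.9e-06).

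Gad1, the enzyme that makes the transmitter GABA, behaved alike. Its signal was 4.61 and 2.29 in wild-type discs and 7.21, 8.03 and 7.58 in lgl discs, at least 9.86-fold higher. In brains it fell 2.78-fold, from 11.64 and 10.95 to 9.72, 10.03 and 9.71, and the tissue difference was 5.63 ± 0.69 (limma adjusted p = 0.00024). Snap25, a SNARE protein of vesicle fusion, gave 6.34 and 3.30 in wild-type discs and 7.61, 8.45 and 8.09 in lgl discs. By group means it rose at least 7.37-fold, but its 2 wild-type disc arrays lay far apart. Scrib discs held it at 7.42 to 7.65. Its change in brains did not pass the test (-1.23, limma adjusted p = 0.19). In contrast, Vmat, the vesicular monoamine transporter, fell at least 4.95-fold in brains and lay below 4 in both disc groups. The general neuronal gene elav did not pass in any of the comparisons (tissue difference 0.55 ± 0.75, limma adjusted p = 0.68), with means of 8.55 and 8.73 in wild-type and lgl discs. Leaving out single arrays left 8 to 13 of the 17 neuronal genes called higher, and array weights left 3.

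Other genes stood among the 12 with the largest higher tissue difference. NLaz, a lipocalin related to apolipoprotein D, gave 2.37 and 4.05 in wild-type discs and 6.41, 6.88 and 6.61 in lgl discs. It fell 3.41-fold in brains, and the groups stood apart in both tissues (tissue difference 5.19 ± 0.66, limma adjusted p = 0.00031). Cbp53E, a calcium-binding protein, had a tissue difference of 5.43 ± 1.03, and Cdk5alpha, an activator of the kinase Cdk5, one of 4.75 ± 0.64. Both calls were lost with array weights (adjusted p = 0.098 and 0.059). The sodium pump subunit nrv3 and the calcineurin subunit CanB also stood among the 12 largest, but wild-type disc array 1 lay near the lgl discs for both, at 7.71 for nrv3 and 7.49 for CanB, against 2.74 and 2.21 on array 2. The call of nrv3 was lost on leaving out lgl brain array 1 or 3, lgl disc array 2 or 3, or wild-type brain array 1 (tissue differences of 4.68 to 5.13, adjusted p = 0.054 to 0.088). That of CanB was lost on leaving out any lgl array or wild-type brain array 1 (4.70 to 5.21, adjusted p = 0.057 to 0.1).

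**Figure D2:**
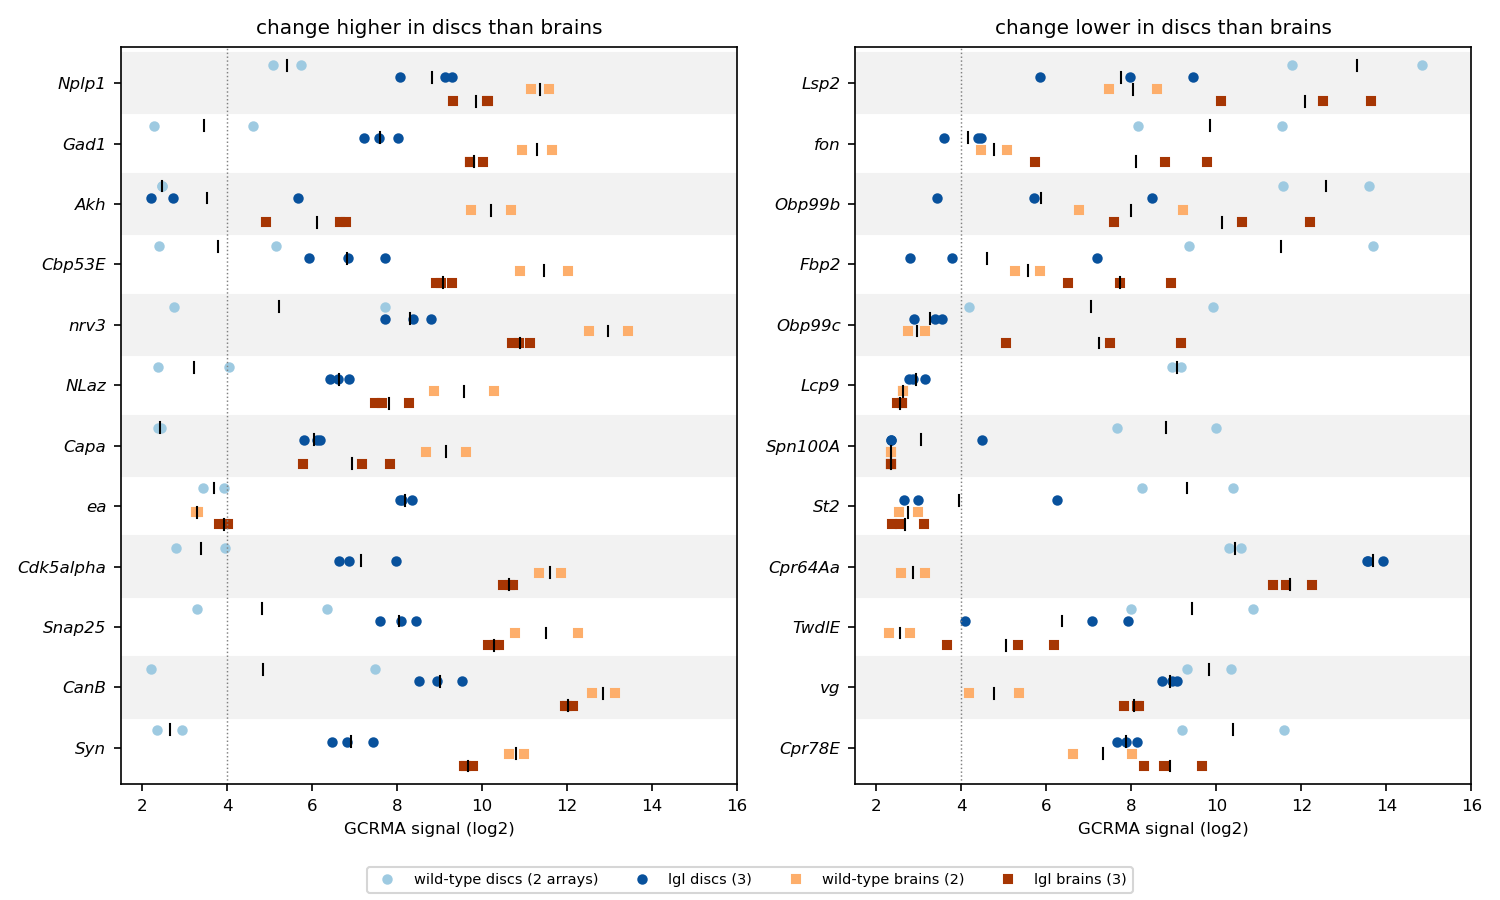
GCRMA signal in log2 units on every array for the 12 genes with the largest higher tissue difference (left) and the 12 with the largest lower one (right). Points are arrays, black ticks are group means and the dotted line marks 4; for Syn the lgl discs lie between 6.47 and 7.44 while wild-type discs lie below 3, and for vg the lgl brains lie near the discs.

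Among the neuropeptides and the enzymes that process them, 16 of 25 measured genes had a higher tissue difference and 1, ETH, a lower one. Over all genes the shares were 9.14% and 4.21%. The median was 3.35, and 24 of the 25 values were positive. In lgl brains 16 of the 25 fell and 1 rose, against 11.3% and 14.2% of all genes, with a median change of -2.22. In discs 7 rose and 1 fell, against 12.6% and 5.63% of all genes. This list kept 14 to 19 higher calls when single arrays were left out and 8 with array weights. Some members fell in brains only. Corazonin (Crz), a peptide of neurosecretory neurons, gave 12.05 and 9.66 in wild-type brains and 7.06, 7.90 and 7.01 in lgl brains, an 11.6-fold fall with no overlap. FMRFa fell 9.14-fold, from 8.14 and 8.16 to 4.56, 5.14 and 5.18. For these genes the disc change did not pass (adjusted p = 0.28 and 0.074).

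Dh31, a diuretic hormone, and NPF, a peptide of feeding circuits, also fell in brains, by -3.40 and -3.39, and lay below 4 in the means of both disc groups. Other peptides rose in lgl discs. Nplp1, a precursor of several peptides, gave 5.74 and 5.07 in wild-type discs and 8.08, 9.13 and 9.29 in lgl discs, a 10.8-fold rise. It fell 2.85-fold in brains, from 11.15 and 11.58 to 9.32, 10.11 and 10.13 (tissue difference 4.94 ± 0.56, limma adjusted p = 0.00016). Capa, whose peptides act on the renal tubules, gave 2.38 and 2.45 in wild-type discs and 5.82, 6.19 and 6.11 in lgl discs. In brains it fell 4.67-fold (tissue difference 5.85 ± 0.71, limma adjusted p = 0.00022). The leucokinin gene Lk rose at least 4.64-fold in discs and the proctolin gene Proc at least 2.17-fold. Among processing enzymes, amon, the prohormone convertase, and Pal2, an amidating lyase, rose in discs at least 3.56-fold and at least 4.95-fold, with brain changes that did not pass. The amidating enzyme Phm had a tissue difference of 0.69 ± 0.23 (limma adjusted p = 0.061).

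**Figure D3:**
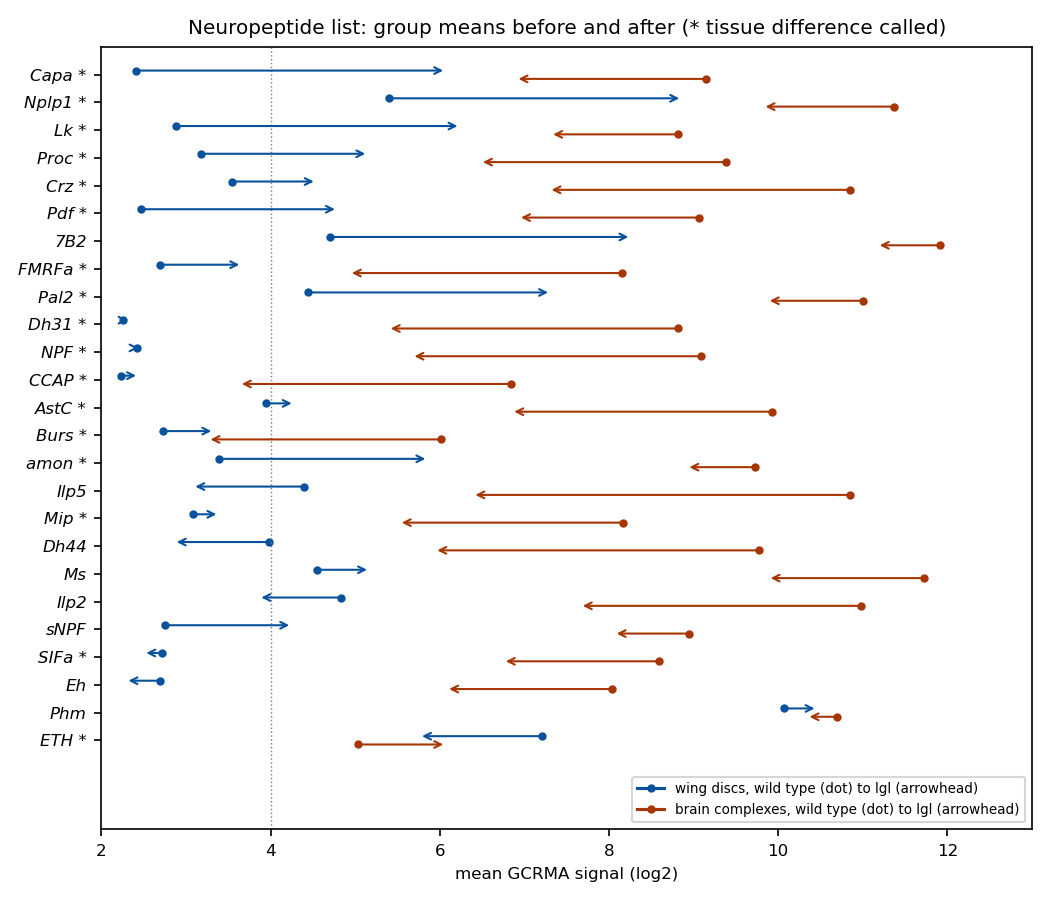
Mean GCRMA signal in log2 units of the 25 measured genes of the neuropeptide list, ordered by tissue difference from ETH at the bottom to Capa at the top. Each arrow runs from the wild-type mean to the lgl mean, blue for discs and brown for brains, and asterisks mark the 17 genes whose tissue difference passed the test; brain arrows point to lower values in all but ETH.

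ETH, the ecdysis-triggering hormone made by endocrine cells on the trachea, fell in discs by -1.41 and rose in brains by 1.01 (tissue difference -2.42 ± 0.40, limma adjusted p = 0.002). The serotonin receptor 5-HT1A lay below 4 on all disc arrays. In brains it gave 7.90 and 7.49 in wild type and 3.93, 3.08 and 3.96 in lgl, so it fell at least 12.9-fold. The Ly6 protein gene twit fell 10.1-fold in brains (tissue difference 4.74 ± 0.69, limma adjusted p = 0.00081). In whole tissues, fewer cells of a type and less RNA per cell cannot be told apart, and this holds for every group of genes here. The neuronal markers include genes described above, so their median is not separate from these results. Their median was 4.89, 5.60 and 4.46 on the lgl disc arrays, above wild-type disc array 2 at 2.56 and close to wild-type disc array 1 at 4.48. In scrib discs of the same age it was 2.62 to 2.87, with 13 of the 17 genes below 4 on every array. Their part in the result was not tested.

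Markers of neuroblasts and their daughters split. Of 16 measured genes, 2 had a higher and 4 a lower tissue difference, against 9.14% and 4.21% of all genes, and the median was 0.21. In lgl brains 9 rose and 1 fell, against 14.2% and 11.3% of all genes. In discs 7 rose and 3 fell, against 12.6% and 5.63%. Grainy head (grh), a transcription factor of late neuroblasts that is also an epithelial factor, gave 8.10 and 8.22 in wild-type brains and 10.41, 10.59 and 10.50 in lgl brains, a 5.05-fold rise. In discs it went from 10.95 and 11.69 to 10.50, 10.64 and 10.85, 1.57-fold lower. Both shifts passed, and the tissue difference was -2.99 ± 0.28 (limma adjusted p = 4.1e-05). The stem cell factors dpn and klu rose in brains 3.06-fold and 3.21-fold and did not pass in discs. Both tissue differences passed (-1.81 ± 0.41 and -2.87 ± 0.58), and both calls were lost with array weights (adjusted p = 0.35 and 0.054).

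Prospero (pros), the determinant that ends self-renewal in the daughter cell, rose in both tissues. It rose at least 39.3-fold in discs, from a wild-type mean of 3.14, and 6.66-fold in brains, from 9.71. Its tissue difference of 3.46 ± 0.79 (limma adjusted p = 0.013) rests on a wild-type disc mean below 4. Other factors of this lineage rose in both tissues without a tissue difference that passed: mira, the Miranda adaptor, 10.6-fold and 7.67-fold in discs and brains, insc 11.4-fold and 4.35-fold, and cas at least 6.51-fold and 4.43-fold. The proneural gene l(1)sc fell 4.69-fold in brains and lay below 4 in the disc groups. Without wild-type brain array 1 only 2 of the 16 genes were called up in brains, in place of 9, and with array weights 1 was.

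Among 15 glial genes, 4 had a higher tissue difference and 0 a lower one, against 9.14% and 4.21% of all genes, with a median of 1.15. Leaving out single arrays left 3 to 5 called higher, and array weights left 2. Moody, a receptor of the glia that form the blood-brain barrier, gave 5.87 and 6.96 in wild-type discs and 10.26, 9.85 and 10.36 in lgl discs, a 13.4-fold rise. In brains the means were 9.05 and 8.75, and that change did not pass (adjusted p = 0.43). The tissue difference was 4.04 ± 0.38 (limma adjusted p = 3.8e-05). The lipid phosphatase gene wun2 rose 12.8-fold in discs, from 6.46 and 7.01 to 10.45, 10.10 and 10.69, and 1.91-fold in brains. The astrocyte gene alrm, with a tissue difference of 4.94 ± 0.98, lost its call with array weights (adjusted p = 0.21). The glial determinant repo rose in both tissues, by 2.82 in discs and 1.44 in brains, and its tissue difference did not pass (1.37 ± 0.53, limma adjusted p = 0.11). Scrib discs held moody at 9.66 and wun2 at 9.90 on average but alrm at 2.87, below 4.

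Of 12 measured genes of the eye and optic lobe, 3 had a higher tissue difference and 1, Optix, a lower one, against 9.14% and 4.21% of all genes. The 3 were toy, ato and l(1)sc, the last also in the neuroblast list. Of these only toy was higher in lgl discs. Both ato and l(1)sc lay below 4 in discs and were lower in lgl brains, at least 1.6-fold and 4.69-fold. The call of Optix was lost without any lgl brain array, wild-type brain array 1 or wild-type disc array 2 (-2.75 to -2.21, adjusted p = 0.057 to 0.12). With array weights 1 higher call was left. Twin of eyeless (toy), a Pax6 gene, gave 4.09 and 2.41 in wild-type discs and 8.68, 9.28 and 8.61 in lgl discs, at least 28.1-fold more. Wild-type brains held it at 10.16 and 9.24 and lgl brains at 10.63, 10.61 and 10.53. The tissue difference was 4.71 ± 0.57 (limma adjusted p = 0.00022), and a second probe set of toy gave 4.23. In scrib discs toy lay below 4 on all 3 arrays.

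The wing disc patterning list had the most lower calls of any list. Of 27 measured genes, 8 had a lower and 1 (tsh) a higher tissue difference, against 4.21% and 9.14% of all genes, and the median was -1.31. In lgl discs 13 of the 27 fell, against 5.63% of all genes, and 0 rose, while 18 had an unadjusted p below 0.05 in limma. In lgl brains 1 rose and 3 fell, against 14.2% and 11.3% of all genes. The higher call of tsh was lost without lgl brain array 1, any lgl disc array, wild-type brain array 2 or wild-type disc array 1 (1.05 to 1.37, adjusted p = 0.05 to 0.1). The signal protein gene hh fell by -2.19 in discs and lay below 4 in the means of both brain groups (tissue difference -2.12 ± 0.45, limma adjusted p = 0.0078). The T-box gene bi gave 8.72 and 8.82 in wild-type discs and 7.11, 7.09 and 7.02 in lgl discs, 3.25-fold lower with no overlap. In brains bi changed by -0.17 and did not pass. Doc2 and Doc3, further T-box genes, fell in discs, Doc2 at least 2.31-fold and Doc3 2.51-fold, and kn, a transcription factor of the central wing, fell 10.1-fold. Leaving out single arrays left 6 to 15 of the 27 called lower, while array weights left 1, vg.

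Vestigial (vg), the selector of wing identity, differed from the other genes called lower in this list in that its brain change passed and its disc change did not. Wild-type brains gave 4.17 and 5.36 and lgl brains 8.14, 8.19 and 7.82, a 9.73-fold rise. Discs gave 9.30 and 10.34 in wild type and 9.07, 8.96 and 8.71 in lgl, which did not pass (adjusted p = 0.087). The tissue difference was -4.19 ± 0.48 (limma adjusted p = 0.00017), and a second probe set gave -3.37. The median of the 27 genes was 5.71 to 5.73 on the lgl brain arrays, within the 5.04 and 5.95 of the wild-type brains.

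**Figure D4:**
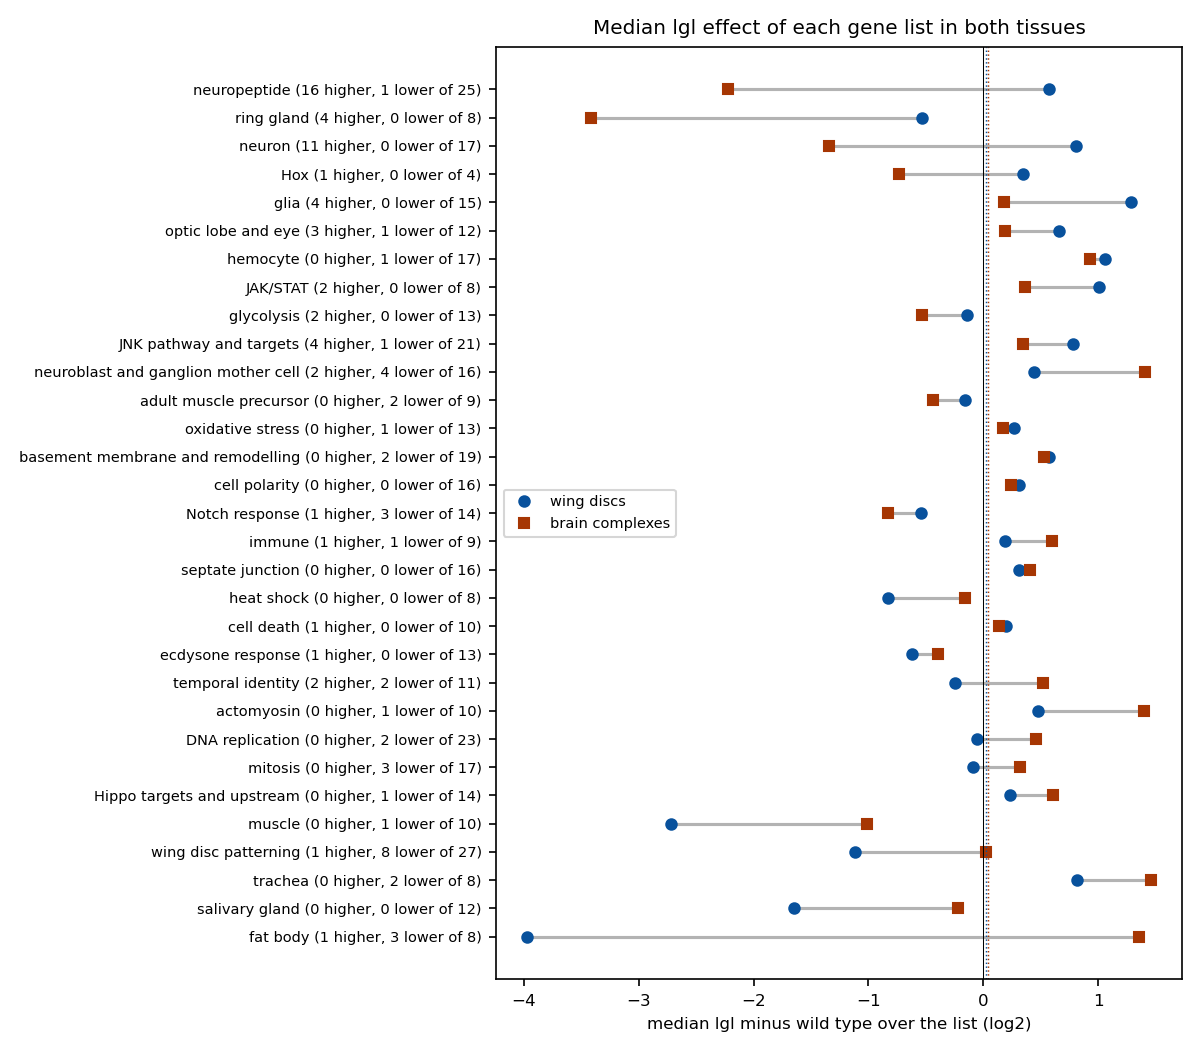
Median change in lgl against wild type, in log2 units, over the measured members of each gene list, with discs as blue circles and brains as brown squares. Lists are ordered by their median tissue difference, the counts give members called higher and lower, and dotted lines mark the medians over all genes (0.02 in discs and 0.04 in brains); neuropeptides, ring gland and neurons lie at the top and the fat body list at the bottom.

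Other genes named by these rules rose in lgl brains. Four-jointed (fj), a Golgi kinase of the Fat and Dachsous pathway, gave 3.87 and 4.65 in wild-type brains and 8.10, 8.20 and 8.22 in lgl brains, at least 14.4-fold more. In discs it rose 2.31-fold, from 9.78 and 10.41 to 11.54, 11.16 and 11.21. The tissue difference was -2.71 ± 0.34 (limma adjusted p = 0.00026), the only call among 14 Hippo genes, against 4.21% of all genes called lower. Of the 14, 1 to 6 were called lower when single arrays were left out, with 6 without wild-type brain array 2. In brains 6 of the 14 rose, against 14.2% of all genes, and in discs 2, against 12.6%. The brain rises were 3 without wild-type brain array 1, 8 without wild-type brain array 2 and 1 with array weights. Zasp52, an actin-associated PDZ-LIM protein, rose 10.1-fold in brains, from 4.64 and 5.68 to 8.40, 8.73 and 8.39, and did not pass in discs (tissue difference -2.83 ± 0.45, limma adjusted p = 0.0015). The cuticle protein gene Cpr64Aa went from 2.57 and 3.15 in wild-type brains to 12.26, 11.33 and 11.64 in lgl brains, at least 214-fold more, and rose 9.40-fold in discs. Its tissue difference was -5.65 ± 0.89 (limma adjusted p = 0.0014), with an adjusted p of 0.079 under array weights. The chitin deacetylase gene Cda4 and the homeobox gene Dr rose in brains 11.2-fold and 6.93-fold, did not pass in discs, and lost their calls with array weights (adjusted p = 0.15 and 0.092). Actbeta, an activin ligand, rose at least 26.8-fold in brains and at least 3.17-fold in discs (tissue difference -2.63 ± 0.44, limma adjusted p = 0.0021, and 0.15 with array weights). Tracheal markers were also higher in lgl brains: 5 of 8 rose there, against 14.2% of all genes. Their medians were 4.85 and 7.19 on the wild-type brain arrays and 8.77 to 9.31 on the lgl brain arrays. The rises numbered 2 without wild-type brain array 1 and 2 with array weights, and the part of these markers in the values was not tested.

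Most genes of the ring gland list, which includes genes of ecdysone control, fell in brains. Of 8 measured ring gland genes, 4 had a higher tissue difference and 0 a lower one, against 9.14% and 4.21% of all genes. The median was 2.65, and 6 fell in lgl brains, against 11.3% of all genes. Ptth, the brain peptide that drives ecdysone synthesis, gave 7.88 and 7.32 in wild-type brains and 4.50, 4.46 and 4.79 in lgl brains, an 8.11-fold fall. The disc arrays held it at 4.20 to 4.87 in both genotypes (tissue difference 2.78 ± 0.32, limma adjusted p = 0.00015). Neverland (nvd), the first enzyme of ecdysteroid synthesis, fell from 6.43 and 5.92 to below 4 on all lgl brain arrays, at least 4.52-fold. Akh, the adipokinetic hormone, fell 16.9-fold in brains. Its call was lost with array weights (adjusted p = 0.40). The other called gene, Npc1a, was only 1.37-fold lower in lgl brains and 1.57-fold higher in lgl discs. That call was lost without lgl disc array 1 (1.04) or wild-type disc array 1 (0.81). The cytochrome P450 spok fell at least 128-fold in brains, its disc change did not pass, and neither did its tissue difference (limma adjusted p = 0.099). Ring gland markers had medians of 7.16 and 7.92 on the wild-type brain arrays and 2.67 to 4.22 on the lgl brain arrays, and their part in the result was not tested.

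Other genes named by these rules rose in discs. Easter (ea), the protease that activates the Toll ligand Spätzle, gave 3.44 and 3.92 in wild-type discs and 8.11, 8.34 and 8.08 in lgl discs, at least 18.1-fold more. Both brain means lay below 4, at 3.29 and 3.93, and ea had the smallest adjusted p of the genes named here (tissue difference 3.86 ± 0.23, limma adjusted p = 1.6e-06). The ligand gene spz itself rose at least 5.53-fold in discs, from 3.28 and 4.90 to 6.90, 6.65 and 7.20, and did not pass in brains (tissue difference 3.35 ± 0.52, limma adjusted p = 0.0013). Scrib discs held ea at 4.07 and spz at 3.38 on average. The antimicrobial peptide gene Drs had a tissue difference of the other sign, -5.13 ± 1.53 (limma adjusted p = 0.043), and rose at least 17.9-fold in brains. That call was lost without any array but lgl brain array 2 (-5.49 to -4.37, adjusted p = 0.052 to 0.11). Fatty acid synthase (FASN1) rose 7.78-fold in discs, from 10.31 and 9.93 to 13.14, 13.19 and 12.92, and its brain means of 12.13 and 11.79 did not differ by the test (tissue difference 3.30 ± 0.28, limma adjusted p = 2.0e-05).

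In the JNK list, 4 of 21 genes had a higher tissue difference (Pax, Jra, puc and bsk) and 1, the Eiger receptor gene grnd, a lower one, against 9.14% and 4.21% of all genes. In discs 9 rose and 1 fell, against 12.6% and 5.63% of all genes. In brains 5 rose and 2 fell, against 14.2% and 11.3%. The kinase gene bsk was 1.12-fold higher in lgl discs and 1.56-fold lower in lgl brains. The call of grnd was lost without any single array but wild-type brain array 2 (-2.61 to -2.22, adjusted p = 0.07 to 0.12), that of Pax without wild-type disc array 1 (1.14, adjusted p = 0.051) and that of bsk without lgl brain array 3, any lgl disc array or either replicate 1 wild-type array (0.71 to 0.83, adjusted p = 0.051 to 0.077). Jra, the Jun transcription factor, rose 2.32-fold in discs, from 9.07 and 9.52 to 10.65, 10.29 and 10.58, and by 0.25 in brains without passing (tissue difference 0.96 ± 0.23, limma adjusted p = 0.014). The phosphatase gene puc, a target of the pathway, rose 3.43-fold in discs. Its call was lost without wild-type brain array 1 (1.40, adjusted p = 0.052) or wild-type disc array 1 (0.99, adjusted p = 0.069). Leaving out single arrays left 1 to 6 of the 21 called higher, and array weights left 0. The relaxin-like hormone gene Ilp8 and the filamin gene cher rose in both tissues, 39.8-fold and 5.19-fold in discs and at least 18.3-fold and 4.37-fold in brains, with no tissue difference that passed (limma adjusted p = 0.58 and 0.72).

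The list drawn up for the Notch response gave 1 higher and 3 lower calls among 14, against 9.14% and 4.21% of all genes. E(spl)m5-HLH, a repressor that Notch switches on, lay below 4 on all disc arrays and fell at least 10.4-fold in brains, from 7.54 and 7.22 to 3.26, 3.66 and 3.25 (tissue difference 4.10 ± 0.33, limma adjusted p = 1.6e-05). E(spl)m4-BFM and E(spl)mdelta-HLH fell in both tissues, by -2.43 and -2.19 in discs and -2.65 and -2.25 in brains. A fall of E(spl)m5-HLH in discs could not be measured below 4, so the genes cannot be compared there. Called lower were E(spl)m7-HLH, E(spl)mbeta-HLH and edl, which is not an E(spl) gene. Of these lower calls only the call of edl was kept whichever single array was left out. That of E(spl)m7-HLH was lost without lgl brain array 1 or 2, lgl disc array 1 or 3, wild-type brain array 2 or wild-type disc array 1 (-1.27 to -0.88). That of E(spl)mbeta-HLH was lost without any lgl brain array, lgl disc array 1 or 2, wild-type brain array 1 or wild-type disc array 2 (-1.20 to -0.70). The lower calls ran from 1 to 4 without single arrays, and array weights left 0.

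Of 23 DNA replication genes 10 rose in lgl brains, against 14.2% of all genes. In discs 0 passed by limma, against 18.2% of all genes, and 1 had an unadjusted p below 0.05. The tissue difference passed for 2 of the 23, Mcm2 and dpa, both lower, against 4.21% of all genes, and the median was -0.56. Mcm2 lost its call without lgl brain array 1 or 2, any lgl disc array or either replicate 1 wild-type array (-0.88 to -0.62), and dpa without any array but wild-type brain array 2 (-0.84 to -0.52). When single arrays were left out that count ran from 0 to 11 and the number rising in brains from 3 (without wild-type brain array 1) to 11 (without wild-type brain array 2). Array weights left 0 of the tissue differences. Mitosis genes gave 3 lower and 0 higher calls among 17, against 4.21% and 9.14% of all genes, with a median of -0.67 and 10 at an unadjusted p below 0.05. The lower calls ran from 0 to 6 without single arrays, with 6 without wild-type brain array 2, and array weights left 0. The call of pim was lost without lgl brain array 1 or 2, any lgl disc array, wild-type brain array 2 or wild-type disc array 1 (-1.11 to -0.64). That of Bub3 was lost without any lgl array, wild-type brain array 2 or wild-type disc array 1 (-0.76 to -0.49), and that of CycB without any lgl array, wild-type brain array 1 or wild-type disc array 2 (-0.87 to -0.57). Of 16 cell polarity, 16 septate junction, 12 salivary gland and 8 heat shock genes measured, 0 passed for the tissue difference by limma. Over all genes 13.4% passed. In these lists 2, 1, 3 and 1 genes had an unadjusted p below 0.05. Their medians were 0.03, -0.06, -2.4 and -0.16, so the salivary gland list was not flat. In lgl discs 4 of its 12 genes fell, against 5.63% of all genes, and in lgl brains 0 rose or fell by the test. Its medians varied between arrays, at 3.42 and 5.92 in wild-type discs and 2.44 and 4.19 in wild-type brains. In lgl discs 10 of the 12 lay below 4 on every array.

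The largest lower values belonged to genes of the fat body and the cuticle and varied between arrays. Larval serum protein 2 (Lsp2), a storage protein of the fat body, gave 14.83 and 11.78 in wild-type discs, 9.45, 5.85 and 7.97 in lgl discs, 7.48 and 8.61 in wild-type brains and 13.63, 10.10 and 12.50 in lgl brains. Its tissue difference was -9.59 ± 2.09 (limma adjusted p = 0.0093), and those of fon and Fbp2, also of the fat body, were -9.04 ± 1.92 and -9.09 ± 2.31. The median of 8 fat body markers was 11.57 and 9.50 on the wild-type disc arrays, 4.71 to 7.69 in lgl discs, 6.37 and 7.88 in wild-type brains and 7.29 to 9.84 in lgl brains. The list held 3 lower calls and 1 higher, FASN1, and without both replicate 1 wild-type arrays the lower calls were 0. With array weights they were 0 as well. Over all genes 4.21% were called lower and 9.14% higher in the main fit. Fbp2 lost its call without wild-type brain array 1 (-8.80, adjusted p = 0.06) or wild-type disc array 1 (-6.93, adjusted p = 0.078). Obp99b and Obp99c, of the odorant-binding family, were called too. Obp99b lost its call without lgl brain array 1 or 3, lgl disc array 2 or 3, or either replicate 1 wild-type array (-8.76 to -7.62), and Obp99c without any array but lgl brain array 2 and wild-type disc array 2 (-8.27 to -5.19). The part of these markers in the values was not tested.

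Of the cuticle genes, Lcp9 fell at least 33.5-fold in discs, from 8.96 and 9.17 to below 4 on all lgl disc arrays, and lay below 4 in brains. Spn100A, a serpin, and St2, a sulfotransferase, fell in discs at least 25.2-fold and 23.6-fold. The call of St2 was lost without wild-type disc array 2 (-4.21, adjusted p = 0.061). The cuticle genes TwdlE and Cpr78E had tissue differences of -5.56 ± 1.46 and -4.10 ± 0.90. That of TwdlE was lost without lgl brain array 2 or 3, wild-type brain array 1 or wild-type disc array 2 (-5.42 to -4.12), and Lcp9, Spn100A and Cpr78E lost theirs with array weights.

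The scrib arrays are not terms of the contrast, but they share in the model's estimate of the spread. Their values show where the called genes sat in a second mutant. Of the 659 genes with a higher tissue difference in lgl, 365 (55.4%) lay at least 1 log2 unit higher in scrib brains than in scrib discs, against 16.9% of all genes. For the 304 lower genes the share at least 1 unit higher in scrib discs was 29.9%, against 13.4% of all genes. The contrast itself picks genes by their wild-type gap. Median signals in wild-type discs and brains were 3.89 and 8.67 for the 659 genes, and 8.66 and 6.26 for the 304. A like gap in scrib can follow from tissue identity alone, so these shares are no support for the calls. The lgl and scrib contrasts share their wild-type arrays, so the tissue differences are given side by side without a count of agreement. For E(spl)m5-HLH they were 4.10 in lgl and 3.37 in scrib, for moody 4.04 and 3.37, for grh -2.99 and -2.94, and for fj -2.71 and -2.86. For Gad1 they were 5.63 and -0.18, for toy 4.71 and -0.22, for Capa 5.85 and 0.67, and for vg -4.19 and -0.52.

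The disc-to-brain difference was then compared directly between lgl and scrib, a test in which the wild-type arrays cancel and age is equal. The 2 mutants carried different alleles, so the mutated gene and the genetic background cannot be told apart in it. It called 350 of 7213 genes (4.85%), 261 (3.62%) with the disc side relatively higher in lgl and 89 (1.23%) with it lower. Among the 6 higher genes named by size, Nplp1 gave the following values: lgl discs gave 8.08 to 9.29 and scrib discs 3.10 to 4.04, while lgl brains gave 9.32 to 10.13 and scrib brains 10.89 to 11.32 (6.66 ± 0.51, limma adjusted p = 1.9e-05). The others were the elongation factor gene eEF1alpha2 (6.25 ± 0.93), Obp99a (6.21 ± 0.70), CanB (5.53 ± 1.30), the convertase helper 7B2 (5.26 ± 1.19) and the immune catalase gene Irc (4.77 ± 0.93). With values below 4 set to 4, Nplp1 gave 6.09 and Obp99a 6.21, so the floor limits the order of these genes. The calls of CanB and 7B2 were lost in 12 and 8 of 21 alternatives, all but 2 of them with 1 array left out. For CanB these were any lgl brain or scrib brain array, lgl disc array 1 or 2, or scrib disc array 1 or 2, and for 7B2 lgl brain array 1 or 2, lgl disc array 2, scrib brain array 2 or 3, or scrib disc array 1 (highest adjusted p over all alternatives 0.12 and 0.097). For Obp99a, eEF1alpha2 and 7B2 the tissue difference of lgl against wild type did not pass.

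On the lower side, vg gave 9.07, 8.96 and 8.71 in lgl discs and 9.67, 9.48 and 9.08 in scrib discs, but 8.14, 8.19 and 7.82 in lgl brains against 4.88, 4.96 and 4.79 in scrib brains (-3.67 ± 0.43, limma adjusted p = 0.0003). The high value was thus seen in lgl brains and not in scrib brains. The FGF ligand gene bnl gave 9.73, 9.32 and 9.85 in scrib discs and 5.11, 3.41 and 4.77 in lgl discs, with all brain arrays below 4 (-4.72 ± 0.49, limma adjusted p = 0.00011). Its 2 other probe sets gave -3.47 ± 0.29 and -3.16 ± 0.16. The gene tut lay at 8.67 to 9.05 in scrib discs and below 4 in lgl discs, and the P450 gene Cyp6a20 at 8.55 to 9.50 in scrib discs and below 4 in lgl discs. Without the filter the call of Cyp6a20 was lost (adjusted p = 0.068). NimA, of the Nimrod family, separated the brains: 7.09, 7.05 and 7.38 in lgl and 2.89, 2.79 and 3.16 in scrib, with 7.27 and 8.37 in wild type. Cpr66D, a cuticle gene, completed the list at -3.36 ± 0.54.

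**Figure D5:**
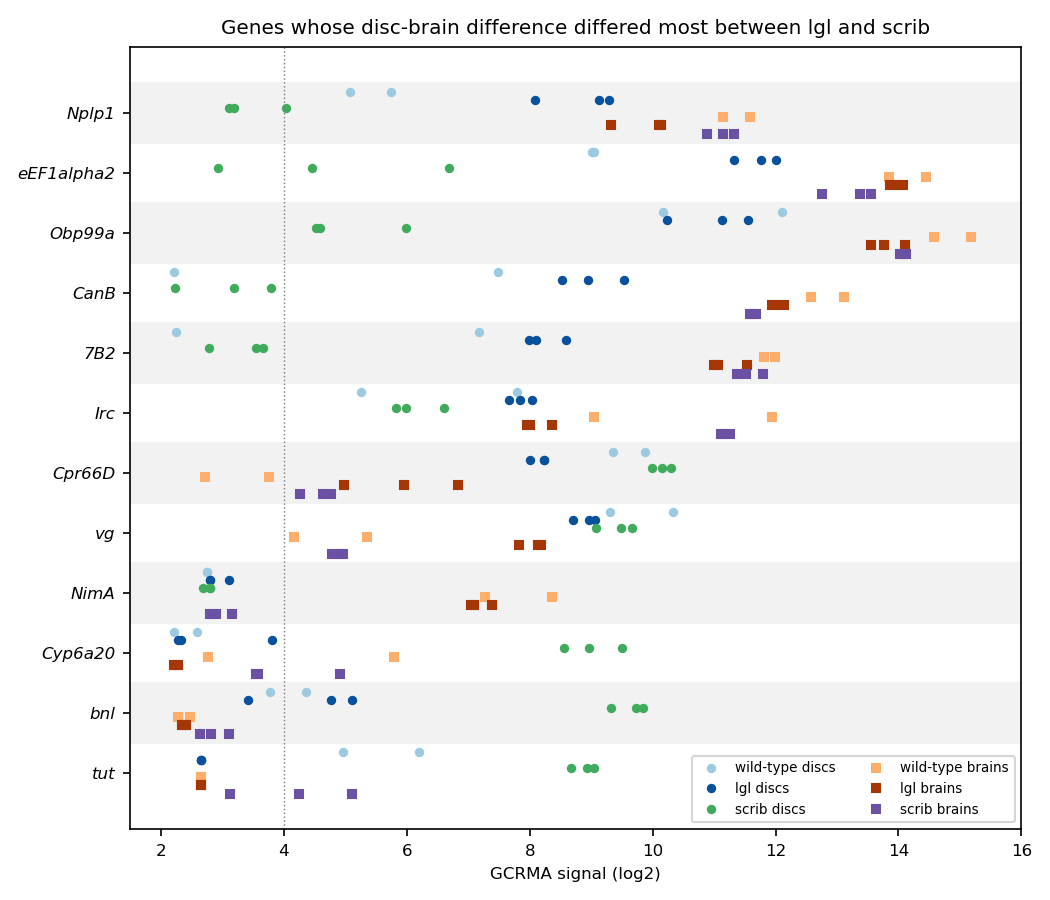
GCRMA signal in log2 units on all 16 arrays for the 12 genes whose disc-to-brain difference differed most between lgl and scrib, 6 in each direction. Each point is an array, circles for discs and squares for brains, with the dotted line at 4; vg is high in lgl brains only among the brain groups, and bnl, tut and Cyp6a20 are highest in scrib discs.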

How the data were processed

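RNA from 16 samples was read on 1-colour Affymetrix arrays as biotin-labelled cRNA. Per the submitters' processing notes the authors ran GCRMA (no version given) and deposited its output, a log2 signal for each probe set. GCRMA corrects background, normalizes between arrays and summarises each probe set, and low signals pile up near a floor (2.21 here), which compresses folds of dim genes. Of 18952 probe sets, 13647 had 1 gene symbol, 402 several, 4720 none and 183 were controls. Probe sets at 4 or above on at least 2 arrays were tested (8819). Between 40.2% and 43.2% of probe sets reached 4 on an array, and the number of arrays limits the precision. Each of 7213 genes was represented by its probe set of highest mean.

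Contrasts came from 1 limma 3.58.1 model (R 4.3.3) with a mean for each of 6 groups on all 16 arrays (10 residual degrees of freedom), with Benjamini-Hochberg adjustment over all probe sets of a contrast. The model was tested on simulated arrays that gave all groups the same spread. That test therefore cannot check the unequal spread of wild-type and lgl arrays, and no result here rests on it. The members, lists and rules were chosen with earlier results of these data known. The rule named the mutated genes, the 12 largest tissue differences each way after setting values below 4 to 4, the 5 largest per class, up to 4 called members per list by adjusted p, and 6 genes each way for lgl against scrib. Further list members were named after their values were seen. Alternatives were filters, variance model, quantile normalization, replicate block, fewer arrays, a floor at 4, array weights by group, 1 probe set per gene, a fold minimum, and leaving out arrays. Leaving out a wild-type array leaves 1, which is assumed to vary like the other groups. Same-numbered arrays deviated together in 3 of 13 pairs (correlations of deviations from -0.169 to 0.434, with 3 over 0.1). The highest, 0.434, joined wild-type discs and wild-type brains, where 2 arrays per group force the same value for both replicate numbers. Whether these wild-type arrays shared a batch was not tested, and the main model paired no arrays. No sequences are shown.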

Additional observations from a re-analysis of the deposited data

Results flagged for a closer look

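The lgl effect differed between tissues in 963 genes by the interaction test, and 75 genes passed the test in both tissues with opposite signs. The opposite-sign classes, 65 and 10 genes, held 34 and 5 without lgl brain array 1, 111 and 26 without wild-type brain array 2, and 2 and 0 with array weights. The disc-to-brain difference differed between lgl and scrib in 350 genes. Among those named by rule the difference was 6.66 for Nplp1, 6.25 for eEF1alpha2, 6.21 for Obp99a, 5.53 for CanB, 5.26 for 7B2 and 4.77 for Irc. Lower in lgl were tut at -4.73, bnl at -4.72, Cyp6a20 at -4.44, NimA at -4.08, vg at -3.67 and Cpr66D at -3.36. Each value is the log2 difference between discs and brains in lgl minus that in scrib, and each passed the test of that difference in limma. Groups of 2 or 3 arrays are too small for a check of single arrays against their group.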

How the results depend on the processing

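Counts here are of probe sets, which numbered 1188 for the tissue difference, 1600 for discs, 2228 for brains and 426 for lgl against scrib. Array weights by group gave 171, 829, 254 and 849. Fitting only the arrays compared gave 706, 784, 588 and 769. A fold minimum of 1 log2 gave 1135 in brains, and no filter gave 273 for lgl against scrib. Leaving out single arrays gave 887 (without lgl brain replicate 1) to 2437 (without wild-type brain replicate 2; 1206 higher, 1231 lower) for the tissue difference, 1183 to 1739 in discs, 1204 (without wild-type brain replicate 1) to 3769 (without replicate 2) in brains, and 308 to 402 for lgl against scrib. The cause was not tested. Fewer arrays leave fewer residual degrees of freedom, but their number is the same whichever wild-type brain array is left out. All other alternatives stayed within 1.5 times. With a replicate block the counts were 1131, 1589, 2160 and 394. No named gene reversed its direction under any alternative. Of 92 named and called genes, 69 lost their call with array weights, 35 without the filter and 9 with the replicate block. Signals below 4 limit what can be measured of dim genes, and 2 wild-type arrays per tissue limit the precision of every tissue difference.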
